A study of Mus musculus with 38 samples.

Results

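Mx2, Rtp4, Ifi27l2a and Cxcl10 are interferon-stimulated genes, 4 of the 9616 genes that had a probe of their own on the array, and they were followed through the spleen's response to the alkylating drug cyclophosphamide. They were chosen from an earlier reading of these data, by their changes over the first days after the drug, so their levels and differences are given as a description with no test. Each had 1 probe, found through its gene identifier among 13443 probes, and each had a value on all 38 arrays. Spleens came from 5 untreated DBA/2 mice and from DBA/2 mice 1 day (4 mice), 2 days (5 mice) or 5 days (5 mice) after intraperitoneal cyclophosphamide at 83 mg/kg. RNA of each spleen, labelled with Cy5, was hybridised on 2 technical arrays beside Cy3-labelled RNA of pooled bone marrow cells. A value is therefore the log2 ratio of spleen over that marrow pool, averaged here over the 2 arrays of a mouse. The labels describe the pool's cells as untreated but name the drug in its treatment field. All arrays share the pool and the dye orientation, so both cancel between groups, not in the ratios themselves. In spleen tissue fewer cells of a type and less RNA per cell cannot be told apart.

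Type I interferons signal through the receptor Ifnar1 and Ifnar2 and the kinases Jak1 and Tyk2 to transcription factors that bind interferon-stimulated response elements. Interferon gamma has its own receptor and acts on gamma-activated sites. Targets of these pathways include antiviral GTPases, the ubiquitin-like modifier ISG15 with its conjugating enzymes, and chemokines that draw activated lymphocytes. Mx2 belongs to the dynamin-like antiviral GTPases. RefSeq lists it as a transcribed pseudogene in the mouse genome build GRCm38.p6. Rtp4 encodes a receptor transporter protein that helps receptors reach the cell surface. Ifi27l2a encodes a small hydrophobic interferon-induced protein. Cxcl10 encodes a chemokine that attracts activated T cells and NK cells through the receptor Cxcr3.

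In GRCm38.p6, Mx2 lies on chromosome 16 from 97536081 to 97560901 and Rtp4 on the same chromosome from 23520219 to 23614222. Ifi27l2a lies on chromosome 12 from 103433873 to 103443680, and Cxcl10 on chromosome 5 from 92346638 to 92348889. The reference used held a promoter entry for Cxcl10 and none for Mx2, Rtp4 or Ifi27l2a. Of these genes only the Cxcl10 promoter is therefore shown, and the others were not searched for motifs. The window, from RefSeq on GRCm38.p6, covers chr5:92348840-92349139 on the minus strand, 250 bases before the start of the gene to 50 after it.
Cxcl10: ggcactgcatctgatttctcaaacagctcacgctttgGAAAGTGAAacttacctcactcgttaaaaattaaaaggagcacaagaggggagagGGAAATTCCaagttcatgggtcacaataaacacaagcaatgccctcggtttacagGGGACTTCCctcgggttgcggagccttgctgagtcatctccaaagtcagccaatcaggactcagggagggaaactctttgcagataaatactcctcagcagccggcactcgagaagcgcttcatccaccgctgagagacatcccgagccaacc
Capitals mark motif matches, searched on both strands. The core of an interferon-stimulated response element, GAAANNGAA, matched once, at position -213 relative to the start site, as GAAAGTGAA. The NF-kB-type motif GGNNNTTCC matched at -158 as GGAAATTCC, where the motif matches on both strands, and at -103 as GGGACTTCC. The gamma-activated site TTCNNNGAA had no match, and no match overlapped another motif. Of 32851 mouse promoter windows of 300 bases, 8.56% held the response element core, 18.5% the NF-kB-type motif and 8.30% the gamma-activated site, so each is common and a match is only a description of these letters.

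In untreated spleen all 4 genes averaged above the marrow pool, by 1.40-fold for Mx2. Markers were checked against the labelled tissue: in untreated spleens the mean log2 ratio was 0.64 ± 0.21 for the B cell list, 0.35 ± 0.15 for the T cell list and -2.74 ± 0.60 for the neutrophil list (SD, n = 5). The NK cell list stood at -0.11 ± 0.18 and the plasmacytoid dendritic cell list at -0.06 ± 0.10, so these 2 were not above the pool. The number of probes with a value per array ran between 5829 and 10407. The 2 technical arrays of a mouse correlated between 0.581 and 0.962, and the correlation was below 0.7 in untreated mice 2 and 4 and day 5 mouse 5.

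Mx2 averaged 0.48 ± 0.21 in untreated spleens, 0.88 ± 0.23 on day 1, 0.98 ± 0.18 on day 2 and 0.29 ± 0.13 on day 5 (SD, n = 5, 4, 5 and 5). The single untreated spleens had 0.34, 0.64, 0.66, 0.58 and 0.18. Those of day 1 had 0.59, 1.07, 1.06 and 0.81, and those of day 2 had 1.15, 1.04, 1.00, 0.69 and 1.05. On day 5 they had 0.24, 0.32, 0.51, 0.19 and 0.22. Every day 2 spleen thus lay above every untreated one, day 1 overlapped the untreated range through its mouse 1 alone, and day 5 lay wholly below day 2.

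Rtp4, like Mx2, had higher means on days 1 and 2 and its lowest mean on day 5. It averaged 0.40 ± 0.17 in untreated spleens, 0.83 ± 0.21 on day 1, 0.83 ± 0.26 on day 2 and 0.18 ± 0.26 on day 5. Single mice had 0.53, 0.44, 0.59, 0.25 and 0.21 without the drug and 0.79, 0.55, 0.94 and 1.03 on day 1. Day 2 mice had 1.18, 0.82, 0.70, 0.51 and 0.97, and day 5 mice had 0.23, 0.60, 0.12, 0.0038 and -0.045. Day 1 and day 2 each overlapped the untreated spleens through their lowest mouse, and day 5 overlapped day 2 through mouse 2 at 0.60.

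Ifi27l2a had the widest spread between mice on day 5. It averaged 0.53 ± 0.32 in untreated spleens, 1.28 ± 0.55 on day 1, 1.52 ± 0.38 on day 2 and 0.10 ± 1.09 on day 5. Untreated mice had 0.84, 0.58, 0.22, 0.17 and 0.82, and day 1 mice 1.84, 1.07, 0.60 and 1.60. Day 2 mice had 1.76, 1.20, 1.36, 1.21 and 2.07, and day 5 mice -1.55, 1.44, 0.13, 0.54 and -0.040. Day 2 lay wholly above the untreated spleens. On day 5 mouse 1 lay below every other spleen of the study, while mouse 2 lay within the day 2 range.

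Cxcl10 had its highest mean on day 1, while the other 3 genes averaged no higher on day 1 than on day 2. It averaged 0.93 ± 0.57 in untreated spleens, 1.86 ± 0.34 on day 1, 1.32 ± 0.79 on day 2 and 0.93 ± 0.45 on day 5. Untreated mice had 1.34, 1.65, 0.86, 0.22 and 0.60, and day 1 mice 1.87, 1.43, 2.27 and 1.88. Day 2 mice had 2.67, 0.89, 1.08, 0.63 and 1.31, and day 5 mice 1.34, 1.43, 0.85, 0.71 and 0.34. The day 2 mean rested on mouse 1: without it, day 2 exceeded the untreated mean by 0.05 in place of 0.38. Without untreated mouse 4 it exceeded that mean by 0.21. All groups overlapped the untreated range.

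**Figure D1:**
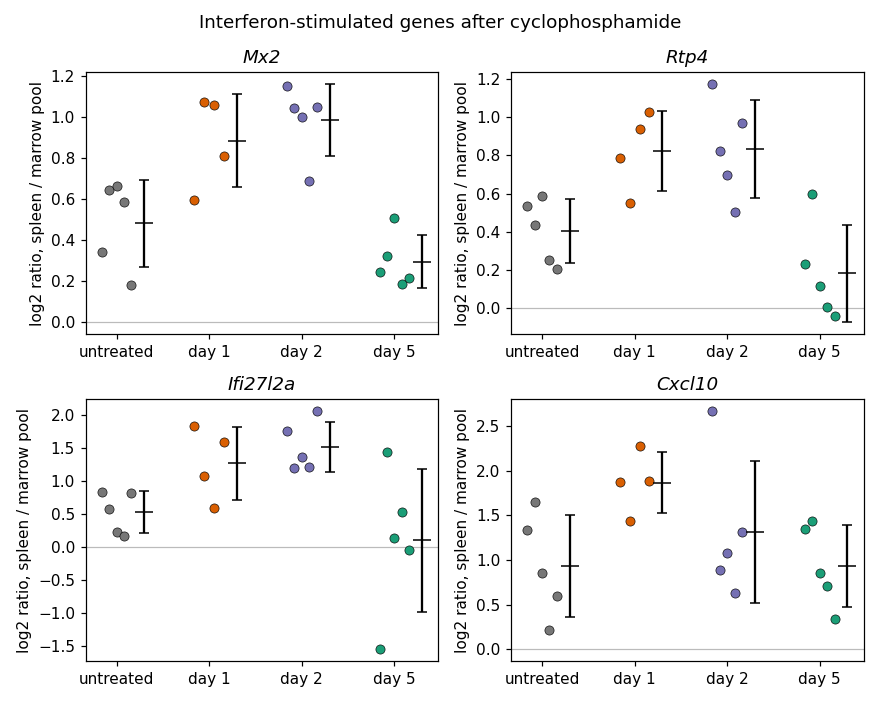
Log2 ratio of spleen over the marrow pool for Mx2, Rtp4, Ifi27l2a and Cxcl10; points are mice (mean of 2 arrays), in untreated spleens and on days 1, 2 and 5 after cyclophosphamide, and the bar beside them is the group mean with its SD (n = 5, 4, 5 and 5). Mx2 on day 2 lies between 0.69 and 1.15, above every untreated mouse, and Ifi27l2a on day 5 runs from -1.55 to 1.44.

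These spreads came mostly from the mice. The SD between the 2 arrays of a mouse was 0.0714 for Mx2, 0.0618 for Rtp4, 0.180 for Ifi27l2a and 0.165 for Cxcl10. The SD between mice of a group was 0.187, 0.227, 0.666 and 0.578 in the same order of genes. Arrays of 1 mouse differed by at most 0.708, for Ifi27l2a in untreated mouse 4.

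On day 1 all 4 genes stood above the untreated mean, with a difference of 0.40 ± 0.14 for Mx2, 0.42 ± 0.16 for Rtp4, 0.75 ± 0.39 for Ifi27l2a and 0.93 ± 0.34 for Cxcl10 (log2, standard error of limma's fit). In linear terms these were 1.32-fold, 1.34-fold, 1.68-fold and 1.91-fold. None of the 4 was clear of the untreated mice on day 1, where 4.24% of all probes tested lay wholly higher. On day 2 the differences were 0.50 ± 0.13 for Mx2, 0.43 ± 0.15 for Rtp4, 0.99 ± 0.37 for Ifi27l2a and 0.38 ± 0.32 for Cxcl10. Mx2 and Ifi27l2a, 2 of the 4, lay wholly above the untreated mice on day 2, against 3.86% of all probes; nothing is read from that share, since these times chose the genes. Between day 2 and day 1, Cxcl10 differed by -0.55 ± 0.34 and the other 3 genes by 0.01 to 0.24, each within 1 standard error, so their order between these days is not settled.

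By day 5 no gene stood above the untreated mean by more than its error, and 3 of the 4 stood below it by 1 to 2 standard errors. The differences were -0.19 ± 0.13 for Mx2, -0.22 ± 0.15 for Rtp4, -0.43 ± 0.37 for Ifi27l2a and 0.00 ± 0.32 for Cxcl10. Ifi27l2a came to -0.01 ± 0.29 without day 5 mouse 1 and to -0.76 ± 0.33 without day 5 mouse 2. Mx2 came to -0.08 without the 3 mice of low technical correlation. Day 5 minus day 2 was -0.69 ± 0.13 for Mx2, -0.65 ± 0.15 for Rtp4, -1.42 ± 0.37 for Ifi27l2a and -0.38 ± 0.32 for Cxcl10. The Cxcl10 value was -0.045 without day 2 mouse 1, -0.23 without day 5 mouse 5, -0.045 with all arrays at equal spread and -0.09 under quantile normalization. Mx2 alone, 1 of the 4, had every day 5 mouse below every day 2 mouse, as did 2.57% of all probes. This comparison shares its day 2 mice with the one above.

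The overall width of the arrays moved with the groups. The SD of the log2 ratios over probes lay between 0.410 and 0.530 in untreated mice, between 0.508 and 0.586 on day 1, between 0.506 and 0.70 on day 2 and between 0.382 and 0.524 on day 5. When all arrays were given the same spread, the day 2 differences were 0.29 for Mx2, 0.21 for Rtp4, 0.67 for Ifi27l2a and -0.06 for Cxcl10. Under quantile normalization they were 0.19, 0.16, 0.64 and -0.09 in the same order, and the day 1 differences were 0.21, 0.26, 0.55 and 0.53. Cxcl10 on day 2 thus changed sign with the scaling. The early differences of the other 3 genes kept their direction under both scalings and shrank. The all-probe median difference on day 2 was 0.01 as deposited and 0.00 under quantile normalization.

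**Figure D2:**
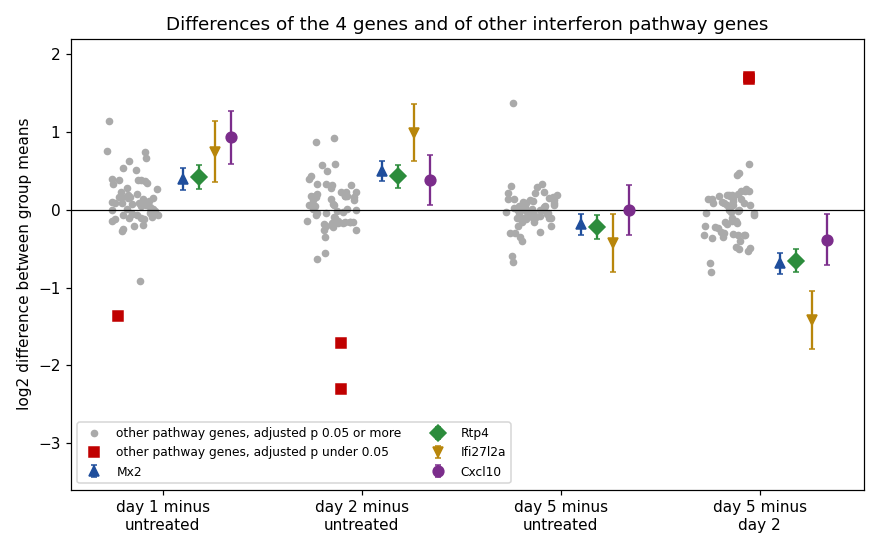
Log2 difference between group means for Mx2, Rtp4, Ifi27l2a and Cxcl10 (coloured symbols, bars are standard errors) and for the 59 other interferon pathway genes tested (grey, and red squares where the adjusted p was under 0.05). The 4 genes lie above 0 on days 1 and 2, and the red squares are Ube2l6 on day 1 and both Uba7 and Ube2l6 on day 2 and from day 2 to day 5.

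Deviations of single mice from their own group mean were not used to choose the genes, and these were tested for all 6 pairs. Rtp4 and Cxcl10 deviated together: r = 0.783 over 19 mice (permutation of mice within groups, 100000 resamples, two-sided p = 0.00024, adjusted p = 0.00144 over the 6 pairs). Spearman's rho was 0.809 (permutation p = 0.00026, adjusted p = 0.00156). Without the 2 mice farthest from the Rtp4 median deviation, r was 0.712 over 17 mice. Leaving out single mice gave 0.736 to 0.823. Groups of 4 or 5 mice are too small for a value of their own.

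Among 3890 other probes with a value in every mouse, 2 came at least as close to Rtp4 as Cxcl10 did in these deviations, Cxcl10 included, and the median r of all of them to Rtp4 was -0.01. The other 5 pairs gave r between -0.175 and 0.346, with permutation adjusted p between 0.431 and 0.539. Mx2 and Ifi27l2a, which had the clearest day 2 levels, had r = -0.175 (rho = -0.328).

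**Figure D3:**
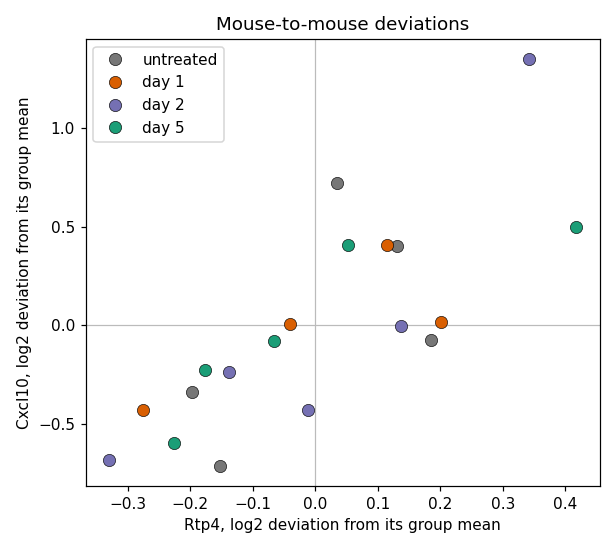
Deviation of Cxcl10 from its group mean (vertical axis, log2) against that of Rtp4 (horizontal axis, log2); each point is 1 of 19 mice, coloured by group. The points rise together with r = 0.783, and day 2 mouse 1 is at the top right.

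Over all 19 mice, group differences included, the genes most like each of the 4 were found among the same 3890 probes by Pearson's r, as a description. Mx2 was closest to Rtn2 (0.858), to Il1b (0.842), which encodes the cytokine interleukin-1 beta, to the glutamate transporter gene Slc1a3 (0.830), to the cholesterol exporter gene Abca1 (0.805) and to Rtp4 (0.799). With group means removed, Il1b's r to Mx2 was 0.10 and Rtn2's was 0.79. Rtp4 was closest to Aldh6a1 (0.846), Pdia3 (0.801), Mx2 (0.799), the interleukin-18 binding protein gene Il18bp (0.797) and the matrix proteoglycan gene Dcn (0.794). With group means removed, Dcn's r to Rtp4 was 0.78. Ifi27l2a was closest to Rgs2 (0.809), a regulator of G protein signalling, then to Cox5a (0.799), Selenos (0.788), Rnaset2b (0.787) and the autophagy receptor gene Sqstm1 (0.781). None of the other 3 genes was in that list. Cxcl10 was closest to the ion cotransporter gene Slc12a2 (0.788), Fstl1 (0.780), Rtp4 (0.756), Tspan31 (0.709) and the ficolin gene Fcna (0.688). All these values share the mice and the marrow pool.

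Measured relatives of Ifi27l2a and Cxcl10 had differences closer to 0 than those 2 genes on days 1 and 2. Ifi27, of the same family as Ifi27l2a, differed from untreated spleen by -0.05 ± 0.14 on day 1 and -0.02 ± 0.14 on day 2. Cxcl9, the other measured Cxcr3 ligand, differed by 0.15 ± 0.22 on day 1 and 0.08 ± 0.21 on day 2. The receptor gene Cxcr3 itself differed by -0.12 ± 0.35 on day 1 and -0.16 ± 0.33 on day 2. None of the 3 passed limma's test on any day. The probes of Mx1 and Cxcl11 had a value in 0 mice, and the Rtp4 relatives Rtp1, Rtp2 and Rtp3 had no probe. How far the probes of Mx2 and Ifi27l2a also bind RNA of related genes was not tested.

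Of 167 other genes listed for the interferon pathway, 99 had a probe and 59 had values in enough mice (3 of each group) for limma's test across 8319 probes. The 40 others included Isg15, with a value in 3 mice, Irf7 in 6, Ifnb1 in 7, Ifit1 in 8 and Rsad2 in 12, so several of the best known interferon targets are not covered. On day 1, 0 of 59 rose past an adjusted p of 0.05 and 1 fell, Ube2l6. Of all probes 0.938% rose and 1.39% fell on day 1. At an unadjusted p under 0.05, 7 of 59 were higher and 2 lower, where 7.34% of all probes were higher and 5.87% lower. The median difference of the 59 was 0.09, with 38 above 0, against a median of 0.02 over all probes, of which 54.3% were above 0. On day 2, 0 rose and 2 fell, Uba7 and Ube2l6, where 3.31% of all probes rose and 5.00% fell. At an unadjusted p under 0.05, 3 of 59 were higher and 4 lower, fewer than the 9.95% higher and 11.0% lower of all probes. The median was 0.05 against 0.01. On day 5, 0 rose and 0 fell against untreated spleen in limma's test, with 0.0481% of all probes risen and 0.0240% fallen. Unadjusted, 3 were higher and 4 lower, with 3.13% of all probes higher and 2.09% lower. From day 2 to day 5, 2 rose and 0 fell, where 3.80% of all probes rose and 1.50% fell. Unadjusted, 2 were higher and 7 lower, with 10.8% of all probes higher and 7.54% lower.

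By role, upstream genes showed no call. Of 4 ligands, 4 receptor and kinase genes, 5 transcription factors and 7 nucleic acid sensors and adaptors tested, 0 passed on any day in limma's test. The interferon gamma gene Ifng differed by -0.14 ± 0.15 on day 1 and 0.17 ± 0.14 on day 2, and the receptor gene Ifnar1 by 0.10 ± 0.18 and -0.10 ± 0.18. Irf9, a transcription factor of the type I response, differed by 0.33 ± 0.16 on day 1 (adjusted p = 0.377) and 0.22 ± 0.15 on day 2. Ifng, Ifnar1 and Irf9, like the next genes named without a call, were picked after their values were seen.

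Among the targets, the list of interferon-induced GTPases holds no Mx gene. Of 8 tested, 0 passed on any day. On day 1, 7 were above 0 with a median of 0.23, where 54.3% of all probes were above 0. On day 2, 7 were above 0 with a median of 0.18, against 50.9% of all probes. From day 2 to day 5, 7 were below 0 with a median of -0.34, where 51.2% of all probes were above 0. Gbp2b differed by 0.66 ± 0.43 on day 1 and 0.58 ± 0.41 on day 2, and Gbp8 by 0.63 ± 0.25 (adjusted p = 0.246) and 0.50 ± 0.24. Guanylate-binding proteins such as these act against intracellular pathogens. Of 13 antiviral effectors, 0 passed, with a median of 0.01 on day 1 and 0.23 on day 2. Ly6e had the smallest p among them on day 1, at 0.76 ± 0.24 (adjusted p = 0.101), and differed by 0.32 ± 0.22 on day 2. Ifit2, which binds viral RNA, differed by 0.54 ± 0.36 and 0.58 ± 0.34. Of 9 chemokine and receptor genes and 5 negative regulators, 0 passed on any day.

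Of 4 ISG15 conjugation genes tested, 1 fell on day 1 and 2 fell on day 2, where 1.39% and 5.00% of all probes fell. Uba7 encodes the enzyme that activates ISG15 and Ube2l6 the enzyme that carries it to targets. Both are interferon-induced genes. Their promoter windows, from RefSeq on GRCm38.p6 with the same limits as that of Cxcl10, are shown for comparison with it. That of Uba7 covers chr9:107975317-107975616 on the plus strand and that of Ube2l6 covers chr2:84798578-84798877 on the plus strand.
Uba7: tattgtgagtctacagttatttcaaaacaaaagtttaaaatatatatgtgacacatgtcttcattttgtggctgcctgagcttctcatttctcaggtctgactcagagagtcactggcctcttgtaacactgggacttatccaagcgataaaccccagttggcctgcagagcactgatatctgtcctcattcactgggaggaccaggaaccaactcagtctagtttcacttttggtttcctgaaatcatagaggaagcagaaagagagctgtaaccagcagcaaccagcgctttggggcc
Ube2l6: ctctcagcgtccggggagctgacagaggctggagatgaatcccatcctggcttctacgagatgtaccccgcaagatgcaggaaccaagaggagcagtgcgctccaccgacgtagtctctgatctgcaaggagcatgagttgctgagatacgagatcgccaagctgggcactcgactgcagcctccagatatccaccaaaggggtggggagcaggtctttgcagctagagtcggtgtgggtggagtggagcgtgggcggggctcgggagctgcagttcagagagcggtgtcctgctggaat
Neither holds a match to any of the 3 motifs, so there are no capitals, which says only that these exact letters are not in these windows.

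Ube2l6 had log2 ratios of -1.67, -2.13, -0.81 and -1.35 in day 1 spleens, against 0.15, -0.0038, -0.17, -0.14 and -0.45 in untreated spleens. Day 2 spleens had -2.52, -2.59, -2.75, -1.36 and -2.93, and day 5 spleens -0.082, -1.37, -0.34, -1.42 and -0.38. All treated spleens of days 1 and 2 lay below every untreated one. The share of all probes that lay wholly lower on these days was not counted, here or for Uba7 below. The difference from untreated was -1.37 ± 0.32 on day 1 (limma, adjusted p = 0.0228) and -2.31 ± 0.30 on day 2 (adjusted p = 3.09e-05), and day 5 exceeded day 2 by 1.71 ± 0.30 (adjusted p = 0.00134). The day 1 call was lost with untreated mouse 1 left out (adjusted p = 0.0539), and likewise with day 1 mouse 1 (0.0640), mouse 2 (0.104) or mouse 4 (0.0516) left out. It was also lost on technical array 1 alone (0.0726) and without the 3 mice of low technical correlation (0.0988).

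Uba7 had -2.16, -3.03, -2.30, -2.45 and -2.15 in day 2 spleens, against -0.14, -0.39, -1.90, -0.65 and -0.48 in untreated spleens, with no overlap. Day 1 spleens had -1.71, -2.57, -0.74 and -1.48, and day 5 spleens -0.23, -0.74, -0.99, -1.22 and -0.52. The difference from untreated was -0.91 ± 0.33 on day 1 (limma, adjusted p = 0.181) and -1.71 ± 0.32 on day 2 (adjusted p = 0.00131), and day 5 exceeded day 2 by 1.68 ± 0.32 (adjusted p = 0.00245). The recovery calls from day 2 to day 5 were lost under quantile normalization for both genes (adjusted p = 0.166 for Uba7 and 0.245 for Ube2l6), and for Uba7 with arrays of equal spread (0.0503). The other 2 genes of the list did not pass: the ISG15 protease gene Usp18 differed by -0.02 on day 2 and the ligase gene Herc6 by -0.22.

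Some red cell precursor markers moved in the same direction as Uba7 and Ube2l6, but on day 2 Epor stood at 0.19 and Hba-a1 at -0.13. The day 1 call of Rhd came from a probe at -2.61, while another of its probes stood at -0.34 (limma, adjusted p = 0.790). Of 7 markers tested, 3 fell on day 1, 4 fell on day 2 and 3 rose from day 2 to day 5. Their score, the median of centred log2 ratios, lay between 0.126 and 1.18 in untreated mice and between -0.746 and 0.129 on day 1. On day 2 it lay between -0.928 and -0.391, and on day 5 between 0.123 and 0.769. Some markers of other cells were also higher on days 1 and 2. Of 8 splenic macrophage markers tested, 1 rose on day 1 and 2 rose on day 2, and from day 2 to day 5, 1 rose and 1 fell. C1qa was the one that rose then, by 1.76 ± 0.44 (limma, adjusted p = 0.0278), after a difference of 0.08 on day 2, and Cd163 stood at -0.30 on day 2. Siglec1 rose by 0.77 ± 0.16 on day 1 (limma, adjusted p = 0.0124) and by 1.24 ± 0.15 on day 2 (adjusted p = 2.22e-05). Siglec1 was listed as a macrophage marker only, so the counts over the 59 pathway genes do not include it. From day 2 to day 5 Siglec1 fell, with a difference of -0.99 ± 0.15 (limma, adjusted p = 0.000427). Mrc1 also rose on day 2, by 1.08 ± 0.31 (limma, adjusted p = 0.0363). Macrophage marker medians were 0.76 on day 1, 0.60 on day 2 and -0.37 for day 5 minus day 2, with scores between -0.670 and -0.299 in untreated mice. Macrophage scores on day 1 lay between -0.0696 and 0.334, those of day 2 between -0.313 and 0.861, and those of day 5 between -0.563 and 0.156. Of 10 stroma and endothelium markers, 1 rose on day 1, 1 rose on day 2 and 1 fell from day 2 to day 5, with scores between -0.419 and -0.0587 in untreated mice. Stroma scores on day 1 lay between 0.187 and 0.300, those of day 2 between -0.186 and 0.505, and those of day 5 between -0.345 and 0.251. Of 5 B cell markers, 0 passed on days 1 and 2 and 2 fell from day 2 to day 5. These 2 were Cd22 and Ms4a1. Cd22 stood at 0.43 ± 0.16 on day 2 and at -0.96 ± 0.16 from day 2 to day 5 (limma, adjusted p = 0.000615). Ms4a1 stood at 0.27 ± 0.18 on day 2 and at -0.66 ± 0.18 from day 2 to day 5 (limma, adjusted p = 0.0329). The rest of the B cell list did not share this fall: from day 2 to day 5 Fcer2a stood at 0.21, Blk at 0.16 and Cd79a at -0.12. Of 3 monocyte markers, only F13a1 passed limma's test. F13a1 fell on day 2 (-0.85), rose from day 2 to day 5 (2.10) and stood above untreated spleen on day 5 (1.25). On day 2 Ms4a6c stood at 0.46 and Cx3cr1 at -0.06. Of 3 neutrophil markers, 1 rose from day 2 to day 5. Of 4 T cell, 3 plasma cell and 4 conventional dendritic cell markers, 0 passed in any of these comparisons. Epor, Hba-a1, Rhd, C1qa, Cd163, Siglec1, Mrc1, Cd22 and Ms4a1 were picked after their values were seen. So were Fcer2a, Blk, Cd79a, F13a1, Cx3cr1 and Ms4a6c. Of 6 markers of plasmacytoid dendritic cells, which are strong makers of type I interferon, and 5 of NK cells, 0 passed limma's test on any day, with medians of 0.06 and 0.09 on day 1. Of all probes 0.938% rose and 1.39% fell on day 1, and 3.31% rose and 5.00% fell on day 2. From day 2 to day 5, 3.80% of all probes rose and 1.50% fell, and 0.0481% stood above untreated spleen on day 5. The marker lists were drawn up with earlier results of these data known, so their counts are no independent check. The part of these cell types in the values of the genes was not tested.

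**Figure D4:**
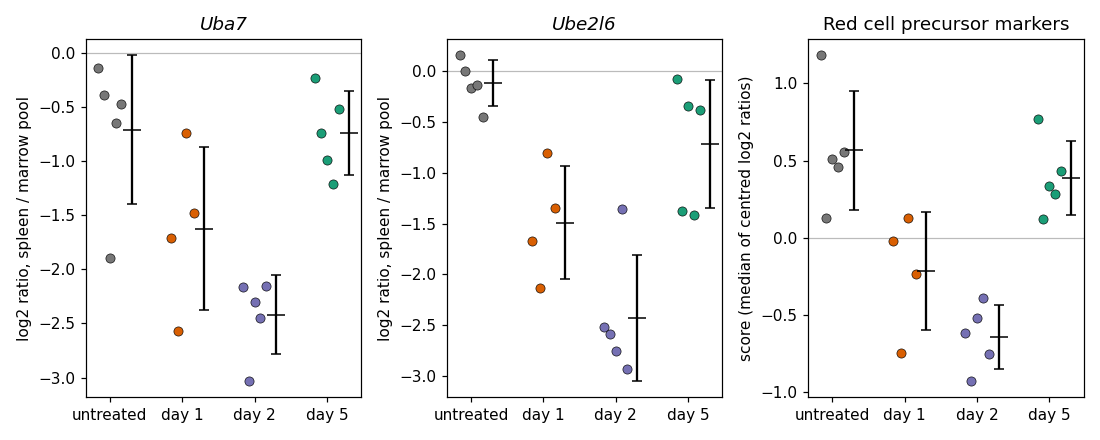
Log2 ratio of spleen over the marrow pool for Uba7 and Ube2l6, and the score of 7 red cell precursor markers; points are mice in untreated spleens and on days 1, 2 and 5, and the bar beside them is the group mean with its SD. Ube2l6 lies between -2.93 and -1.36 on day 2, and the marker score is lowest on the same day, between -0.928 and -0.391.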

How the data were processed

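Per the labels, the authors deposited log2 ratios of spleen (Cy5) over a pool of bone marrow cells (Cy3) for 13443 probes on 38 arrays, 2 for each of 19 mice. How spots were filtered and normalized, by what software, and the base of the logarithm are not stated in the labels; base 2 was taken. Array medians ran between -0.0212 and 0.0132, 63.2% of values are present, and 7 values stand at a size of 6, a bound. The number of arrays limits the precision.

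Probes were named through gene identifiers: 10032 had 1 gene, 170 several and 3241 none. The 2 technical arrays of a mouse were averaged. limma 3.58.1 in R 4.3.3 (lmFit and eBayes, 4 groups sharing 1 spread) was fitted to the 8319 probes measured in 3 or more mice per group, two-sided, with Benjamini-Hochberg adjustment over all of them at 0.05. It was tested on simulated data. Permutation tests and promoter motif searches were run in Python 3.11.15. The separate mice of a group were taken as replicates.

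The 4 genes and the gene lists were chosen with earlier results of these data known. Of the pathway lists, genes past the threshold were named with the listed relatives. Further pathway genes without a call, such as Ifng, Irf9 and Ly6e, were picked after their values were seen. Likeness names the 5 genes of highest Pearson r over 19 mice. Alternatives changed the scaling, the technical array, the filter, the variance model, the samples in the fit and a replicate block, and left out each mouse in turn. Cell type lists (T, B, plasma, NK, plasmacytoid and conventional dendritic cell, splenic macrophage, monocyte, neutrophil, red cell precursor, stroma) served to describe the tissue, not as independent checks.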

Additional observations from a re-analysis of the deposited data

Results flagged for a closer look

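Among 24 gene and group combinations examined for a single distant mouse, 2 had one, and chance gives about 1 in 20. Ube2l6 in day 2 mouse 4 stood at -1.36, well above the 4 other mice of that day. Uba7 in untreated mouse 3 stood at -1.90, well below the 4 other untreated mice.

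The difference from untreated spleen changed between day 2 and day 5 for 2 genes, in the day 5 minus day 2 comparison already given. Both were lowered on day 2. On day 5 every Uba7 value lay within the untreated range, while Ube2l6 was still lower on average. Neither passed limma's test on day 5 against untreated spleen. The rise between these days was 1.71 for Ube2l6 and 1.68 for Uba7 (limma, adjusted p = 0.00134 and 0.00245). Both calls were lost under quantile normalization (limma, adjusted p = 0.245 and 0.166).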

How the results depend on the processing

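Each result was recomputed under 13 other settings and with each of the 19 mice left out, where the setting applied. The number of pathway genes changed on day 1 was 1, and 0 without the 3 mice whose technical arrays correlated below 0.7; with single mice left out it ran from 0 to 2. From day 2 to day 5 it was 2, against 0 under quantile normalization and 1 where all arrays had equal spread. Mx2 moved to 0.21 on day 1, 0.19 on day 2 and -0.49 from day 2 to day 5 under quantile normalization, and to 0.29 on day 2 with equal spread. Rtp4 on day 2 moved to 0.16 under quantile normalization. Calls over all probes also fell with these scalings: on day 2, 108 rose and 230 fell under quantile normalization and 101 rose and 252 fell with equal spread, against 275 and 416. From day 2 to day 5, 64 rose and 19 fell under quantile normalization and 125 rose and 19 fell with equal spread, against 316 and 125. The cause was not tested.

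The covariation of Rtp4 and Cxcl10 stayed past the threshold in all 23 alternatives run on it (permutation, r 0.707 to 0.823, adjusted p 0.00036 to 0.0154). Mice of the same number in different groups did not deviate together (mean r -0.00 over 27 pairs, -0.249 to 0.325), so the numbers do not pair them. With the replicate block, 1, 3, 0 and 2 pathway genes changed on day 1, day 2, day 5 and from day 2 to day 5. Pathway genes with a value in few mice, Isg15 and Irf7 among them, limit what the lists can show.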
